A study of Homo sapiens with 12 samples.

Results

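The integrated stress response and the unfolded protein response were followed through 6 genes, ATF4, DDIT3, XBP1, HSPA5, PSAT1 and DDIT4, chosen by name out of the 1676 genes of the deposited table. RNA was taken 24 h after a tau construct was transfected into SH-SY5Y, a human neuroblastoma cell line that serves as a neuronal model; tau is a protein that binds microtubules. The 4 constructs, with 3 libraries each, were Tau-K174Q-S199E with both substitutions, Tau-K174Q, Tau-S199E, and Tau-WT without either. Replacing lysine with glutamine is commonly used to mimic an acetylated lysine, and replacing serine with glutamate to mimic a phosphorylated serine. All 4 groups received tau, so no group shows cells without a tau construct. The sources used here do not give the promoter of the constructs, the share of cells transfected or whether the libraries of a construct came from separate cultures. The p-values below therefore cover the spread between libraries of a construct, and this spread may be technical.

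In the integrated stress response, kinases that sense different stresses phosphorylate the translation initiation factor eIF2, which lowers most protein synthesis while the mRNA of ATF4 is translated more. ATF4, a transcription factor, switches on genes of amino acid supply, redox balance and, through DDIT3 (CHOP), cell death. In the unfolded protein response, the sensors PERK, IRE1 and ATF6 are held by the chaperone HSPA5 (BiP) in the endoplasmic reticulum (ER) until unfolded proteins draw it away. PERK feeds the same eIF2 step, and IRE1 splices the mRNA of XBP1 into the form that encodes an active transcription factor for ER chaperones and ER-associated degradation. PSAT1 is an enzyme of serine synthesis under ATF4 control, and DDIT4 (REDD1) restrains the growth kinase complex mTORC1.

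Each gene of the deposited table has mean 0 and SD 1 over the 12 libraries, so levels and differences are in SD units of that gene. They are not fold changes and cannot be compared as levels between genes, and sequencing depth is unknown. Genes were in the table only with an adjusted p under 0.05 in the authors' unnamed contrast (highest 0.0499). The direction of Tau-S199E against Tau-WT was opposite to the sign of the authors' log2 fold change in 1676 of 1676 genes. That of Tau-K174Q against Tau-WT was opposite to it in 1675. A direction shared by both substitutions alone is thus a trait of the table. Counts of calls below are therefore set beside the share of the whole table that was called, and a share near that background says nothing particular about the stress genes. Library 12 of Tau-S199E stood apart, with an SD over all genes of 1.67 against 0.83 in library 10 and 0.77 in library 11, and library 18 of Tau-K174Q-S199E lay on the other side of 0 from library 16 in 5 of the 6 stress genes. The column names also carry a short code, whose meaning the sources used here do not give. Codes followed the order of the library numbers from B3 (library 2) to B5 (library 18), apart from E9 for Tau-WT library 1. Code and construct thus ran together and cannot be told apart.

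Promoter sequence is shown for HSPA5 and XBP1, because both hold an exact match to the same ER stress element and moved in opposite directions. The windows are the 250 bases before the RefSeq start (GRCh38.p14), read 5′ to 3′ along the gene, at chr9:125241344-125241593, minus strand, for HSPA5 and chr22:28800570-28800819, minus strand, for XBP1. Capitals mark the exact match to the ER stress response element (CCAAT, 9 bases of any kind, then CCACG), the site bound by ATF6 and XBP1 together with NF-Y. Sites that depart from it by a base or more were left unmarked.
HSPA5: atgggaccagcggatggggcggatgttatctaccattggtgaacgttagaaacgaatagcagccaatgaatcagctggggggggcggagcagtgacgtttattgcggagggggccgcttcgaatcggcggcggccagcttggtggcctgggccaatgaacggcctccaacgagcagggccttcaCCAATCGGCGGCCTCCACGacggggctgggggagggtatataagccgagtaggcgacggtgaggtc
XBP1: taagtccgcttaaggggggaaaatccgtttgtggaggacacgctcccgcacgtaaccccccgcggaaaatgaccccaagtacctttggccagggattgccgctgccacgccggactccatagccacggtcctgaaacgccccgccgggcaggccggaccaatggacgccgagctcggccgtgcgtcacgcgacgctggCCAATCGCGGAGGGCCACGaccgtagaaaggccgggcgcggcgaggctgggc

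The match in HSPA5 lay from base -66 to base -48 before the start and read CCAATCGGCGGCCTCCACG, and that in XBP1 lay from -52 to -34 and read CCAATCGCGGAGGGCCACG. Searched on both strands of the same 250 bases, this element was found in 25 of 27305 genes with a RefSeq promoter (0.0916%) and in 3 of the 1282 table genes matched by symbol (0.234%). The third was EIF2A, with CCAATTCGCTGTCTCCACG at chr3:150546710-150546728, plus strand. EIF2A encodes an initiator tRNA-binding factor. The match lies before the RefSeq start but inside the GENCODE 29 gene, which begins at 150546678 and lies within the annotated span of SERP1 on the opposite strand. The related element II (ATTGG, 1 base of any kind, then CCACG) occurred in 18 of the 27305 genes (0.0659%) and in 1 table gene, SDF2L1, as ATTGGTCCACG at chr22:21642114-21642124 on the strand opposite to the gene. SDF2L1 encodes an ER cochaperone of HSPA5. None of the windows of ATF4, DDIT3, PSAT1 and DDIT4 exactly matched either element, the unfolded protein response element TGACGTGG or the C/EBP-ATF element TGATGNAAT. Only exact matches were searched for, so a site that departs from an element by 1 base was not counted. Such a site is cgtgccactttctgattgg in the DDIT3 window, which differs by 1 base from the ER stress response element read on the opposite strand. TGACGTGG occurred in 0.78% of all genes and TGATGNAAT in 1.09%, and no motif match overlapped another in HSPA5 or XBP1.

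HSPA5 and XBP1, the ER chaperone and the transcription factor of the unfolded protein response, stood at opposite ends of the constructs. HSPA5 (ENSG00000044574, chromosome 9, 125234853 to 125241330, minus strand, GRCh38) was at 0.11, -0.13 and -0.44 SD units with Tau-K174Q-S199E in libraries 16, 17 and 18, at 0.11, -0.10 and 0.05 with Tau-K174Q in libraries 4, 5 and 6, at -0.98, -0.20 and -2.20 with Tau-S199E in libraries 10, 11 and 12, and at 1.09, 1.60 and 1.08 with Tau-WT in libraries 1, 2 and 3. Every library with a substituted tau lay below every Tau-WT library, and Tau-S199E libraries lay below those of Tau-K174Q. XBP1 (ENSG00000100219, chromosome 22, 28794555 to 28800597, minus strand) was at -0.52, -0.90 and 0.83 with Tau-K174Q-S199E, at 0.26, 0.41 and 0.16 with Tau-K174Q, at 0.53, 0.73 and 2.01 with Tau-S199E, and at -1.28, -1.15 and -1.07 with Tau-WT, in the same order of libraries. Every library with a substituted tau lay above every Tau-WT library, library 18 far above libraries 16 and 17, and Tau-S199E libraries above those of Tau-K174Q. A 3′ tag counts spliced and unspliced XBP1 mRNA alike, so these values do not show IRE1 activity. Over the table, Tau-S199E libraries lay apart from those of Tau-WT in 94.2% of genes, Tau-K174Q libraries in 80.7% and Tau-K174Q-S199E libraries in 11.6%. Those of Tau-K174Q and Tau-S199E lay apart from each other in 36.2%. The share of genes in which all of these held together was not counted.

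ATF4 and DDIT3, the transcription factors of the integrated stress response, were low with each substitution alone. ATF4 (ENSG00000128272, chromosome 22, 39519695 to 39522685, plus strand) was at 1.56, -0.05 and -0.73 SD units with Tau-K174Q-S199E, at -0.59, -0.73 and -0.57 with Tau-K174Q, at -0.58, -0.44 and -1.21 with Tau-S199E, and at 1.98, 0.62 and 0.74 with Tau-WT. The Tau-K174Q and Tau-S199E libraries overlapped each other and lay below all Tau-WT libraries, while library 16 of Tau-K174Q-S199E lay among the Tau-WT libraries, library 18 among those of Tau-S199E, and library 17 between these and the Tau-WT libraries. DDIT3 (ENSG00000175197, chromosome 12, 57516588 to 57521737, minus strand) was at 2.0, 0.79 and 0.48 with Tau-K174Q-S199E, at -1.22, -0.07 and -0.45 with Tau-K174Q, at -0.88, -0.76 and -1.48 with Tau-S199E, and at 0.45, 0.72 and 0.42 with Tau-WT. It was the only one of the 6 genes in which all Tau-K174Q-S199E libraries lay apart from all Tau-K174Q and all Tau-S199E libraries. Over the table, libraries lay apart from those of Tau-S199E in 43.4% of genes and from those of Tau-K174Q in 11.2%. The share of genes that lay apart from both was not counted. ATF4 is regulated chiefly through translation, which mRNA values do not show.

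PSAT1 and DDIT4, a metabolic enzyme and a growth inhibitor induced downstream of ATF4, were higher with each substitution alone, where ATF4 was lower. With Tau-S199E 48.3% of the table was called higher and 41.8% lower, so moving against ATF4 is common there. Of 6 other genes listed as metabolic targets of ATF4, 2 rose and 4 fell. PSAT1 (ENSG00000135069, chromosome 9, 78297143 to 78330093, plus strand) was at -0.99, -0.92 and 0.71 SD units with Tau-K174Q-S199E, at 0.72, 0.41 and -0.04 with Tau-K174Q, at 0.89, 0.50 and 1.86 with Tau-S199E, and at -1.39, -0.98 and -0.77 with Tau-WT. Libraries of Tau-K174Q and Tau-S199E lay above all Tau-WT libraries, and of the Tau-K174Q-S199E libraries only library 18 did. DDIT4 (ENSG00000168209, chromosome 10, 72273920 to 72276036, plus strand) was at -1.76, 0.41 and 0.84 with Tau-K174Q-S199E, at 0.63, 0.66 and 0.11 with Tau-K174Q, at 0.64, 1.03 and 0.48 with Tau-S199E, and at -0.18, -1.85 and -1.02 with Tau-WT. Tau-K174Q and Tau-S199E libraries again lay above all Tau-WT libraries, but library 16 of Tau-K174Q-S199E lay among the Tau-WT libraries and libraries 17 and 18 above them.

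**Figure D1:**
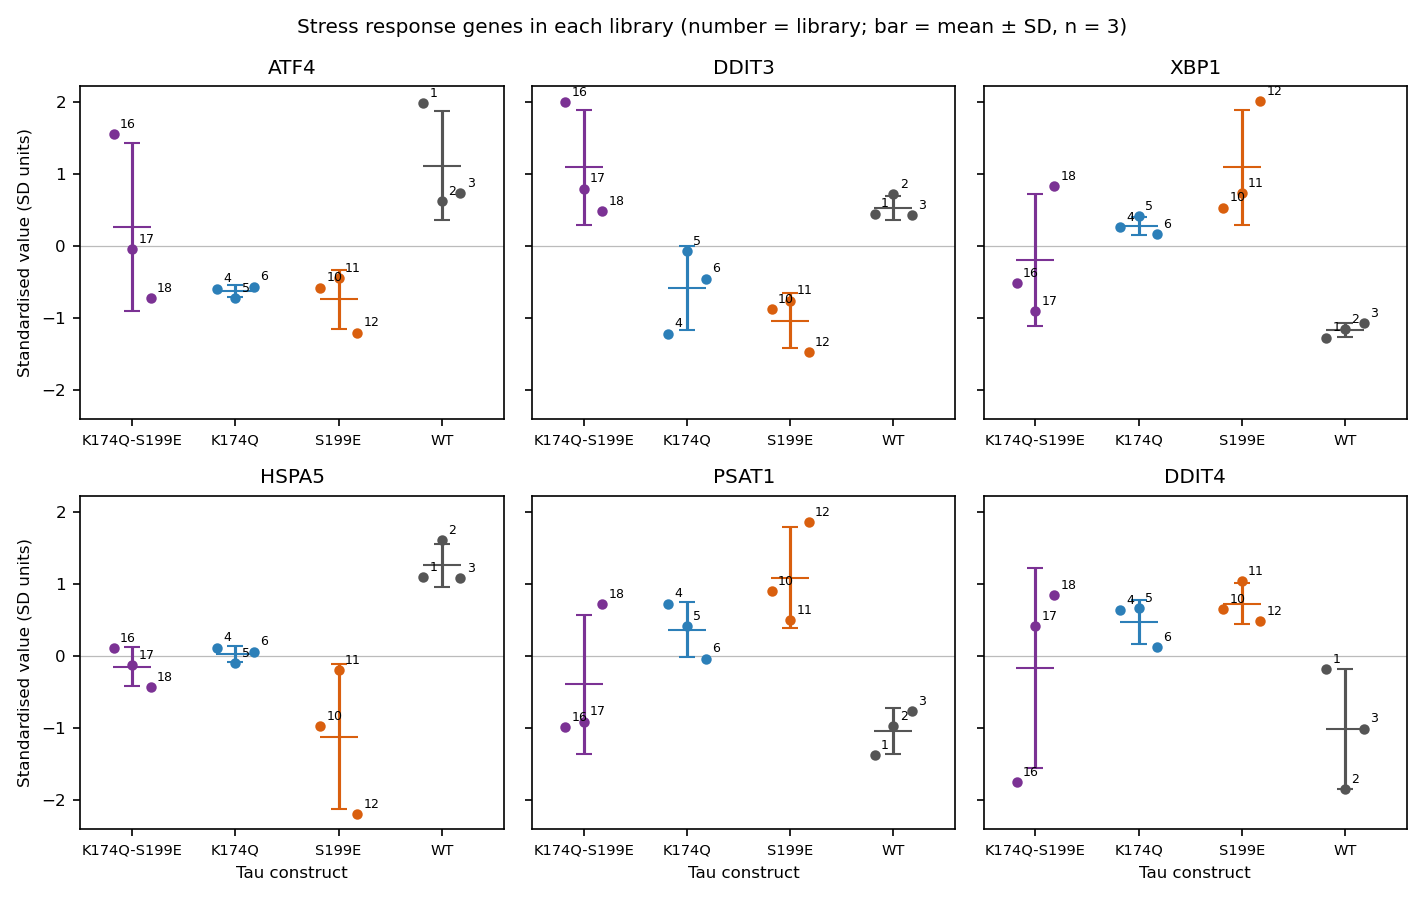
Standardised value (vertical axis, SD units) of each stress gene in each of the 12 libraries, by tau construct (horizontal axis); points are libraries with their number, and bars give the mean ± SD of 3 libraries. In all 6 panels the Tau-K174Q and Tau-S199E libraries lie on one side of the Tau-WT libraries, as Tau-S199E libraries do in 94.2% and Tau-K174Q libraries in 80.7% of the table, and the SD of the Tau-K174Q-S199E libraries is the largest of the 4 constructs in each gene but HSPA5.

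The first comparison set the phosphorylation mimic alone, Tau-S199E, against Tau-WT. All 6 stress genes passed an adjusted p of 0.05 in the linear model fitted with limma, 3 higher and 3 lower, where 90% of the table was called (48.3% higher and 41.8% lower). HSPA5 averaged -1.13 ± 1.01 with Tau-S199E and 1.26 ± 0.30 with Tau-WT (SD, n = 3 each), a difference of -2.38 SD units (SE 0.45, limma adjusted p = 0.00968). In size this was rank 54 of the 1676 genes. XBP1 averaged 1.09 ± 0.80 with Tau-S199E and -1.17 ± 0.10 with Tau-WT, a difference of 2.26 (SE 0.50, limma adjusted p = 0.0102), rank 221. PSAT1 rose by 2.13 (SE 0.53, limma adjusted p = 0.0116) and DDIT4 by 1.74 (SE 0.68, limma adjusted p = 0.0403). ATF4 averaged -0.74 ± 0.41 with Tau-S199E and 1.11 ± 0.75 with Tau-WT, and fell by 1.86 (SE 0.59, limma adjusted p = 0.0217). DDIT3 fell by 1.57 (SE 0.44, limma adjusted p = 0.0152), rank 1454. The median size of the 6 differences was 1.99 SD units, against 1.99 over all genes of the table. The libraries did not overlap in any of the 6 genes, as in 94.2% of the table, and the exact two-sided permutation p was 0.1 in each, the smallest that 3 libraries against 3 allow.

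These calls differed in how far they rested on single libraries. XBP1, HSPA5 and PSAT1 passed in limma in all 6 fits that left out one of the compared libraries, with differences from 1.80 to 2.54, from -2.85 to -1.85 and from 1.74 to 2.42. The share of the table that passed in all 6 fits was not counted, so this does not set these genes apart. Without library 12, 3 of 6 genes and 49.7% of all genes passed: ATF4 (-1.63, limma adjusted p = 0.071), DDIT3 (-1.35, limma adjusted p = 0.053) and DDIT4 (1.85, limma adjusted p = 0.0776) no longer passed. ATF4 was also lost without Tau-WT library 1 (-1.42, limma adjusted p = 0.0643), where 69.9% of the table passed, against 90% with all libraries. DDIT4 passed in 1 of the 6 fits, that without Tau-WT library 1, and its highest limma adjusted p was 0.125, without Tau-WT library 2.

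**Figure D2:**
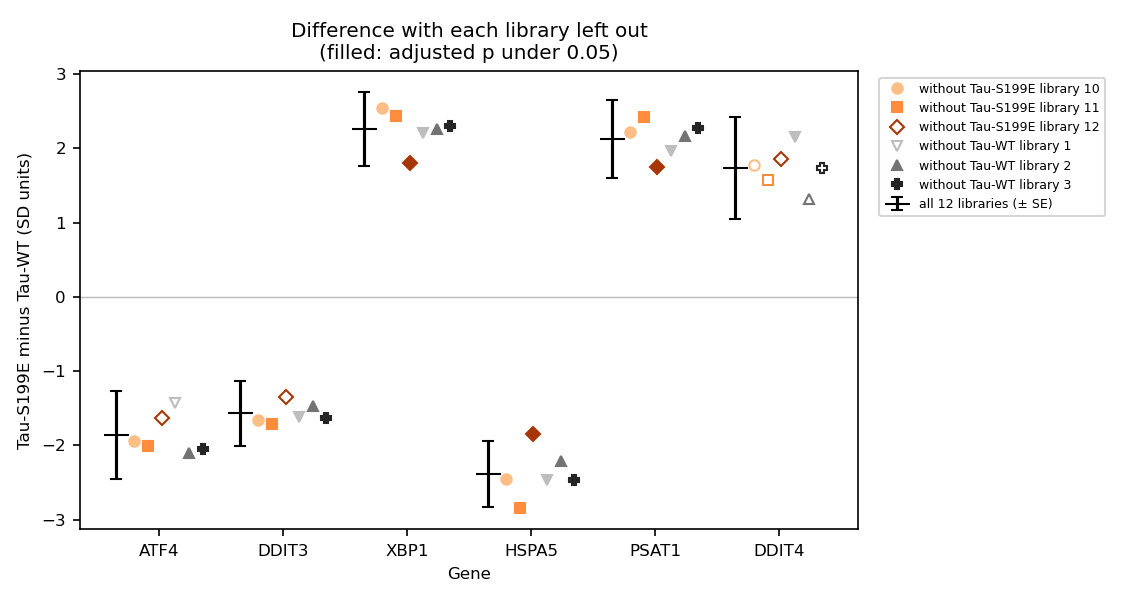
Difference of Tau-S199E minus Tau-WT (vertical axis, SD units) for each stress gene (horizontal axis), with all 12 libraries (bar, ± SE) and with each compared library left out; filled symbols passed an adjusted p of 0.05. Directions hold throughout, as they must where the libraries of both constructs do not overlap. Without library 12 the filled symbols are those of XBP1, HSPA5 and PSAT1.

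The second set the acetylation mimic alone, Tau-K174Q, against Tau-WT. None of the 6 genes passed in limma, where 0% of the table was called. At an unadjusted p under 0.05 there were 5 of the 6 genes (all but DDIT4) and 870 of the 1676. The differences were -1.74 (SE 0.59) for ATF4, -1.11 (SE 0.44) for DDIT3, 1.44 (SE 0.50) for XBP1, -1.24 (SE 0.45) for HSPA5, 1.41 (SE 0.53) for PSAT1 and 1.48 (SE 0.68) for DDIT4, with limma adjusted p from 0.0696 to 0.103. ATF4 was the member furthest up the order of size here, at rank 285. Libraries did not overlap in any of the 6, as in 80.7% of the table. Moderated variances called 5 genes (all but DDIT3) and the fit on the 6 compared libraries 4 (ATF4, XBP1, HSPA5 and PSAT1), with 59.9% and 48.9% of the table, and ranks called 0. This comparison shares its Tau-WT libraries with the previous one, so like signs in both are not separate evidence. Its sign was also opposite to that of the authors' fold change in 1675 of the 1676 genes.

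Set directly against Tau-S199E, Tau-K174Q gave no call: none of the 6 genes passed in limma, where 0.0597% of the table was called (HSPA5 and 269 of 1676 genes had an unadjusted p under 0.05), and 0 of the 6 with moderated variances, ranks or the 6 compared libraries alone. HSPA5 was 1.15 SD units higher with Tau-K174Q than with Tau-S199E (95% interval 0.12 to 2.17, limma adjusted p = 0.283), and XBP1 differed by -0.81 (95% interval -1.97 to 0.34, limma adjusted p = 0.384). In both genes the libraries did not overlap, which held for 36.2% of the table. ATF4 differed by 0.11 (95% interval -1.25 to 1.48) and DDIT4 by -0.25 (95% interval -1.83 to 1.32). These intervals are wide, so a difference of the size seen against Tau-WT could be missed in DDIT4.

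Tau-K174Q-S199E against Tau-WT asks what remains when both substitutions are present. None of the 6 genes passed in limma, where 0% of the table was called, nor with moderated variances, ranks or the 6 compared libraries alone. At an unadjusted p under 0.05 there was 1 of the 6, against 127 of 1676 genes. That gene was HSPA5, which averaged -0.15 ± 0.27 with Tau-K174Q-S199E and 1.26 ± 0.30 with Tau-WT (SD, n = 3 each), a difference of -1.41 (95% interval -2.44 to -0.38, limma adjusted p = 0.533). In size this was rank 24 of 1676, and it lay between -1.54 and -1.24 with each compared library left out. XBP1 was 0.97 higher (95% interval -0.18 to 2.12). In HSPA5 and XBP1 the libraries did not overlap, as in 11.6% of the table. DDIT3 was 0.56 higher with Tau-K174Q-S199E (95% interval -0.45 to 1.58, which includes 0). Alone among the 6, its difference had the opposite sign to that of Tau-S199E against Tau-WT, as in 134 of the 1676 genes. The remaining differences were -0.85 for ATF4, 0.65 for PSAT1 and 0.85 for DDIT4, each with an interval that included 0.

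Adding K174Q to Tau-S199E gave 0 of 6 genes in limma, where 0.119% of the table was called; moderated variances called 3 (68.8% of the table), ranks 1 (24.5%) and the fit on the 6 compared libraries 0 (0%). The mean with Tau-K174Q-S199E lay on the Tau-WT side of the mean with Tau-S199E in all 6, as in 1672 of the 1676 genes. DDIT3 averaged 1.09 ± 0.80 with Tau-K174Q-S199E and -1.04 ± 0.39 with Tau-S199E, a difference of 2.13 (95% interval 1.12 to 3.15, limma adjusted p = 0.0644), rank 16 of 1676 in size. Its libraries did not overlap, as in 43.4% of the table. PSAT1 differed by -1.48 (95% interval -2.69 to -0.27, limma adjusted p = 0.0706) and XBP1 by -1.29 (95% interval -2.44 to -0.13, limma adjusted p = 0.0747). Those 3 genes were at an unadjusted p under 0.05, as were 946 of the 1676. Without library 18, 4 of the 6 genes passed in limma, where 78.5% of the table was called: DDIT3 (2.44), PSAT1 (-2.04), XBP1 (-1.80) and ATF4 (1.50). HSPA5 (0.97) and DDIT4 (-0.89) did not pass with or without it.

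Adding S199E to Tau-K174Q gave 0 of 6 genes in limma, where 0% of the table was called (1 of 6 and 138 of 1676 at an unadjusted p under 0.05), and 0 of 6 with moderated variances, ranks or the 6 compared libraries alone. DDIT3 averaged 1.09 ± 0.80 with Tau-K174Q-S199E and -0.58 ± 0.59 with Tau-K174Q, a difference of 1.67 (95% interval 0.66 to 2.69, limma adjusted p = 0.456), rank 25 in size, and its libraries did not overlap, as in 11.2% of the table. It passed without library 18 (1.98, limma adjusted p = 0.0447), where 8.47% of the table was called. HSPA5 differed by -0.17 (95% interval -1.20 to 0.86).

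**Figure D3:**
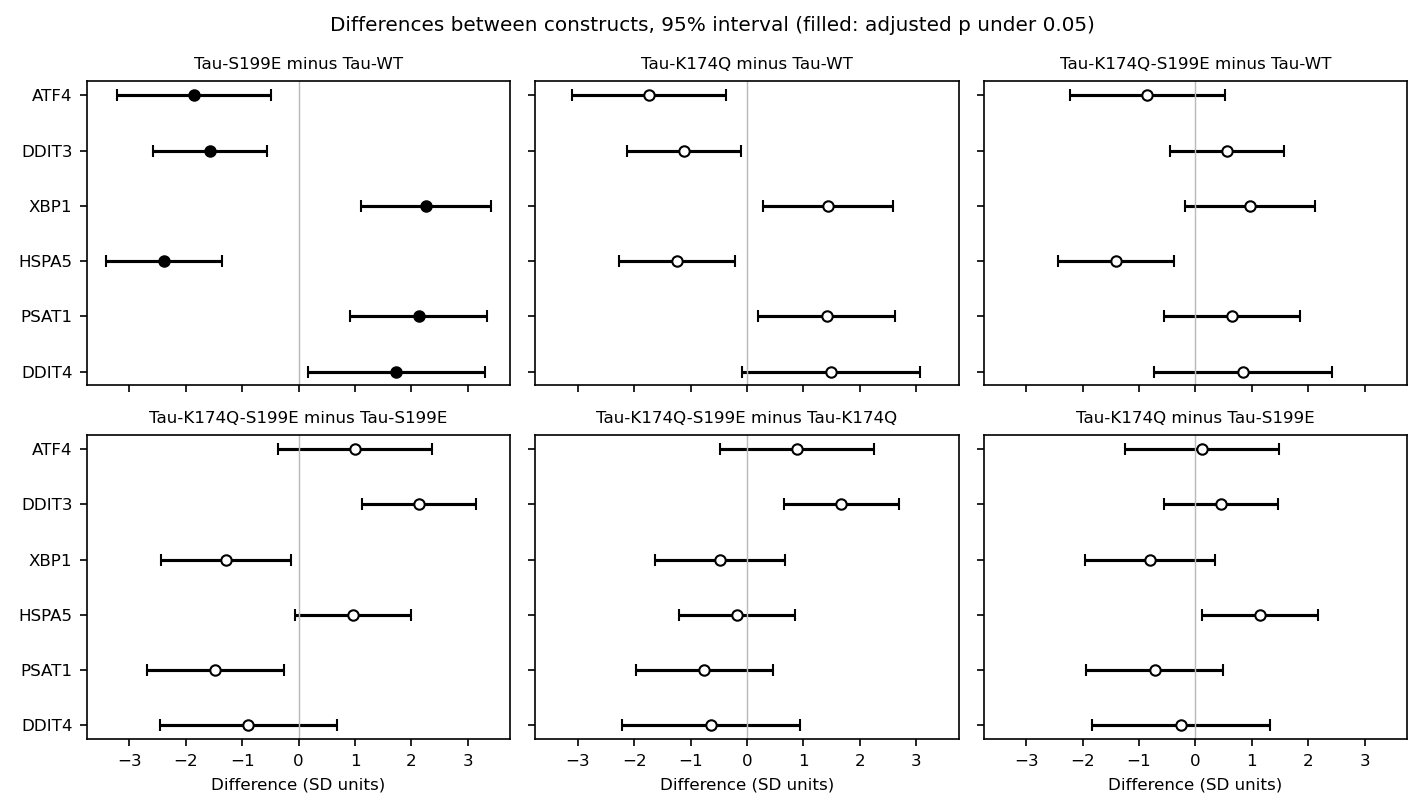
Differences between constructs (horizontal axis, SD units) of the 6 stress genes (vertical axis), 1 panel per comparison; points are differences of means of 3 libraries, bars 95% intervals from the linear model, and filled points passed an adjusted p of 0.05. Filled points occur only in Tau-S199E minus Tau-WT, and DDIT3 lies farthest from 0 in both comparisons of Tau-K174Q-S199E with a construct of 1 substitution.

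Whether K174Q acts differently in the presence of S199E is measured by the interaction, (Tau-K174Q-S199E minus Tau-S199E) minus (Tau-K174Q minus Tau-WT). Its sign equalled that of the authors' fold change in 1676 of 1676 genes and 97% of the table was called in limma, so the 6 of 6 stress genes called here are no result about these genes. DDIT3 had the largest value of the 6, 3.24 SD units (SE 0.62), rank 18 of 1676. In the authors' deposited table DDIT3 had a log2 fold change of 1.32 (adjusted p = 0.00419), ATF4 1.28 (adjusted p = 0.00321) and HSPA5 0.63 (adjusted p = 0.0257). The authors' deposited table gave XBP1 a log2 fold change of -1.49 (adjusted p = 0.00191), PSAT1 -1.54 (adjusted p = 0.00214) and DDIT4 -0.98 (adjusted p = 0.048). By the size of that fold HSPA5 was at rank 1657 of 1676 in the authors' deposited table, close to the end, although its difference between Tau-S199E and Tau-WT in SD units was among the largest. The contrast behind those folds is not named in the file. The authors' clusters placed ATF4 and DDIT3 in cluster 2, HSPA5 in cluster 1, DDIT4 in cluster 3, and XBP1 and PSAT1 in cluster 4.

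Of the 186 other genes listed for these pathways, 38 were in the table (20.4%), and 36 of them passed in Tau-S199E against Tau-WT in limma, 19 higher and 17 lower, beside the background of 90%. The median size of their differences was 2.0 SD units, against 1.99 over all genes of the table; since both sets went both ways, the signed medians of 0.10 and 1.41 do not set them apart. In the comparisons of Tau-K174Q with Tau-WT, of Tau-K174Q-S199E with Tau-WT, Tau-S199E and Tau-K174Q, and of Tau-K174Q with Tau-S199E, 0 of the 38 passed in limma, with 18, 2, 19, 4 and 3 at an unadjusted p under 0.05, beside 870, 127, 946, 138 and 269 of all 1676 genes. No member of the lists of sensors and eIF2 kinases (6 genes), of other stress transcription factors (13 genes) or of the IRE1 branch (7 genes) was in the table, and nothing can be said of their levels.

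Among 29 genes listed as ATF4 targets of amino acid and folate metabolism, 6 were in the table, and 2 rose and 4 fell with Tau-S199E. Whether ATF4 controls each of them in these cells was not tested. PHGDH and PSAT1 of serine synthesis moved apart, in a table where 48.3% of genes were called higher and 41.8% lower with Tau-S199E. PHGDH, which makes the substrate of PSAT1, was at 2.19, -0.09 and -0.33 SD units with Tau-K174Q-S199E, at -0.54, 0.21 and 0.30 with Tau-K174Q, at -1.21, -0.89 and -1.42 with Tau-S199E, and at 0.63, 0.15 and 0.98 with Tau-WT. It fell by 1.76 with Tau-S199E (SE 0.63, limma adjusted p = 0.0304), where PSAT1 rose. The asparagine synthetase ASNS fell by 1.83, as did PYCR1 of proline synthesis (-2.18), whereas ALDH18A1, an earlier enzyme of proline synthesis, rose by 1.96 and the serine hydroxymethyltransferase SHMT1 by 1.97. SESN2, a stress-induced inhibitor of mTORC1, fell by 1.52 (SE 0.53, limma adjusted p = 0.0283), where DDIT4, another inhibitor of mTORC1, rose.

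Of 12 genes listed for eIF2, its exchange factor and its phosphatases 2 were in the table, and both fell with Tau-S199E. EIF2S2 (-1.67, SE 0.58) encodes the beta subunit of eIF2, whereas EIF2A (-2.15, SE 0.57) encodes a separate initiator tRNA-binding factor and is no part of eIF2. Of 13 genes listed as tRNA synthetases and tRNA export under ATF4 control 4 were in the table, and 1 rose and 2 fell: MARS1 rose by 1.65, and GARS1 (-1.69) and TARS1 (-1.73) fell. SARS1 had a difference of -1.44 that did not pass (limma adjusted p = 0.0736). MARS1 overlaps DDIT3 in the genome. The 3′ end of DDIT3 and that of MARS1 (MARS in the file) share 982 bases on opposite strands, at chromosome 12, 57516588 to 57517569. The sources used here do not give the strand setting of the authors' counting, and without strand the reads of both genes could not be told apart there. MARS1 was at -0.02, -0.93 and 0.52 with Tau-K174Q-S199E, at 1.01, 0.49 and 0.54 with Tau-K174Q, at 0.56, -0.01 and 1.11 with Tau-S199E, and at 0.27, -2.22 and -1.33 with Tau-WT. Its Tau-S199E and Tau-WT libraries overlapped, and its difference between them had the sign opposite to that of DDIT3. Whether reads of one gene were counted in the other was not tested.

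Among ER chaperones and folding factors 3 of 26 were in the table, and 1 rose and 1 fell with Tau-S199E. SDF2L1 fell by 2.09 (SE 0.59, limma adjusted p = 0.0158) beside HSPA5, and MANF, a secreted ER stress protein, rose by 1.64. SIL1, a nucleotide exchange factor of HSPA5, had a difference of -1.46 that did not pass (limma adjusted p = 0.0706). Table genes with an exact match to an ER stress element in the promoter window numbered 4. Of them XBP1 rose, and HSPA5, EIF2A and SDF2L1 fell with Tau-S199E.

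ER-associated degradation, the disposal route that XBP1 supplies with enzymes, was represented by 7 of 22 genes; with Tau-S199E, 4 rose and 3 fell. The rises were those of the ER membrane proteins DERL1 (2.15, SE 0.50), DERL2 (1.65) and SELENOS (2.04) and of the ubiquitin ligase SYVN1 (1.67). The falls were those of the ubiquitin-conjugating enzyme UBE2J2 (-2.22, SE 0.53), of UFD1 (-2.14), which helps pull substrates from the membrane, and of the lectin OS9 (-1.74). Of the list for protein entry into the ER and export from it 9 of 36 genes were measured; 7 rose and 2 fell. Subunits of the translocation channel went both ways, as the table did (48.3% called higher and 41.8% lower). The pore subunit SEC61A1 fell by 2.26 (SE 0.52), and the small subunits SEC61B and SEC61G rose by 2.05 (SE 0.56) and 1.82 (SE 0.55). SEC61A1 was at 0.68, -0.28 and -0.51 with Tau-K174Q-S199E, at -0.32, 0.45 and 0.27 with Tau-K174Q, at -1.71, -0.03 and -1.79 with Tau-S199E, and at 1.41, 1.01 and 0.82 with Tau-WT. The signal peptidase genes SEC11C (2.30), SPCS1 (2.07) and SEC11A (1.77) and the oligosaccharyltransferase genes DAD1 (2.15) and DDOST (2.05) rose, and SRP72 of the signal recognition particle fell by 2.02.

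The mTORC1 axis on which DDIT4 acts was represented by 7 of 22 genes, with 4 higher and 3 lower in Tau-S199E. The activating GTPase RHEB rose by 2.05, the lysosomal GTPase RRAGA by 2.03, the upstream kinase AKT1 by 2.17 and the translation repressor EIF4EBP2 by 1.81. The scaffold LAMTOR2 (-2.25), the ribosomal S6 kinase RPS6KB2 (-2.08) and the mTOR partner MLST8 (-1.58) fell.

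**Figure D4:**
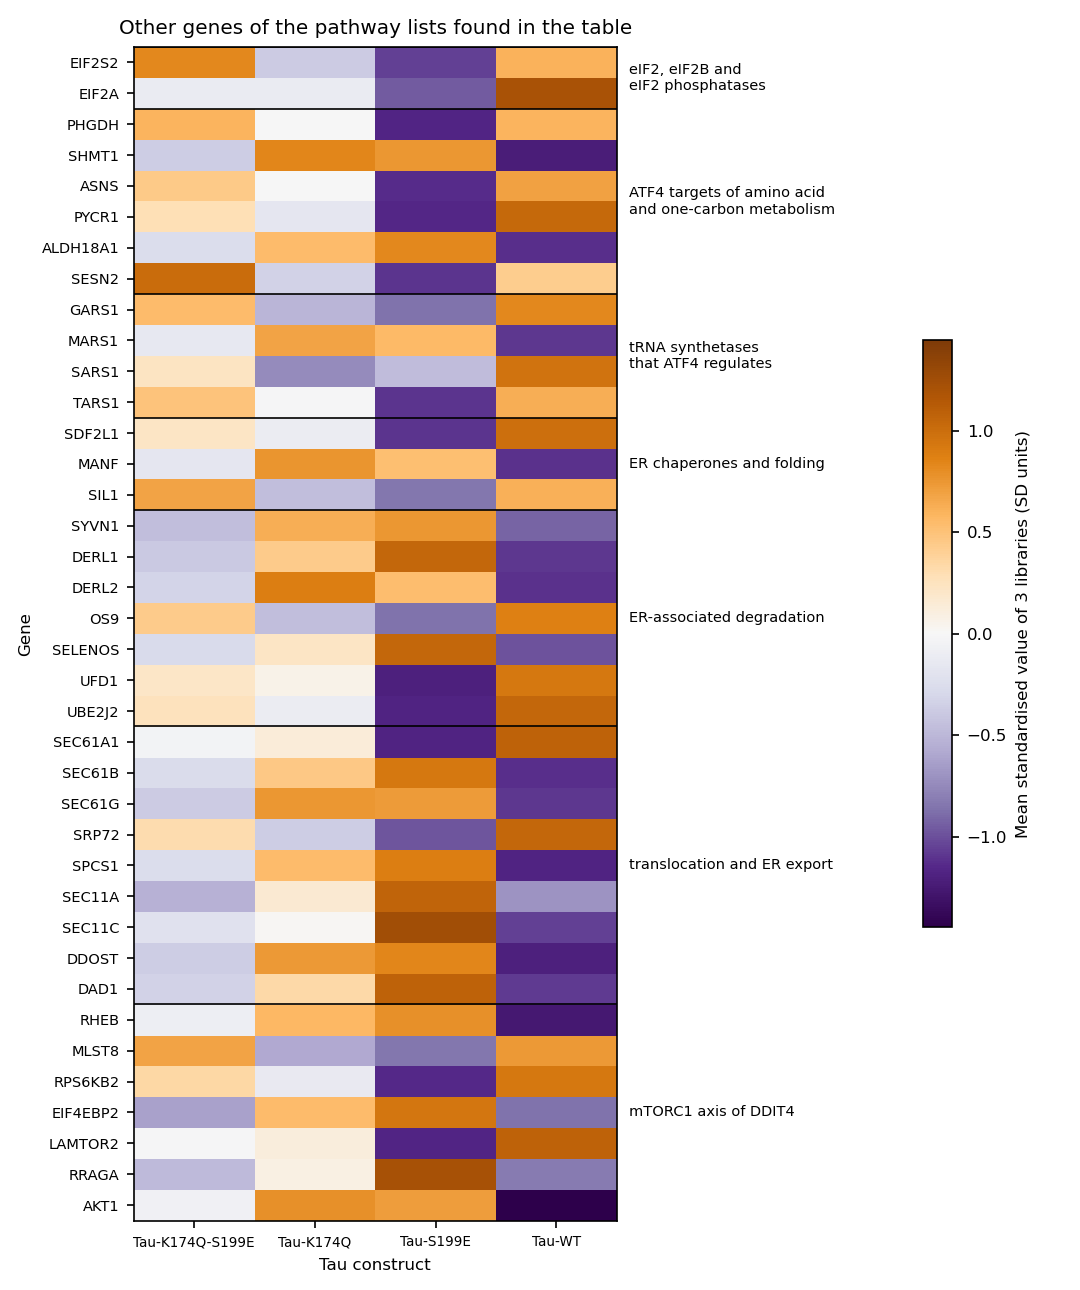
Mean standardised value of 3 libraries (colour, SD units) of the 38 other pathway genes found in the table (vertical axis, by role) for each tau construct (horizontal axis). Genes that are low with Tau-S199E are high with Tau-WT and the reverse, and each role that holds 3 or more genes has members of both kinds.

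By likeness of pattern over the 12 libraries, given as Pearson's r and as a description only, the nearest genes to DDIT3 were SESN2 (0.96), ABL2 (0.95) and TMEM41A (0.92), and 16 genes with a symbol exceeded 0.9. XBP1 was most like GADD45B, SDHC and MGST3 (0.99, 0.98 and 0.98), with 286 genes over 0.9, and PSAT1 most like CERS6, SRSF7 and RCC1 (0.99, 0.98 and 0.98), with 294. Many genes of the table thus share the patterns of XBP1 and PSAT1. For ATF4 the nearest were B4GAT1, DIO2 and GPATCH4 (0.97, 0.97 and 0.96), with 87 genes over 0.9. For HSPA5 they were SMARCD2, NUDCD3 and AURKB (0.94 each), with 40, and for DDIT4 GAL, CCNB2 and MARCHF5 (0.93 each), with 7. The most opposite genes were RBFA for DDIT3 (-0.93), PTMS for XBP1 (-0.97), CHAF1A for PSAT1 (-0.98), ZNF281 for ATF4 (-0.94), SGCE for HSPA5 (-0.96) and SRP72 for DDIT4 (-0.96). Among the 6 genes themselves, r was 0.96 between XBP1 and PSAT1 and 0.73 between ATF4 and DDIT3, and -0.88 between ATF4 and its target PSAT1. All these values share the same libraries and a table selected for 1 contrast.

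**Figure D5:**
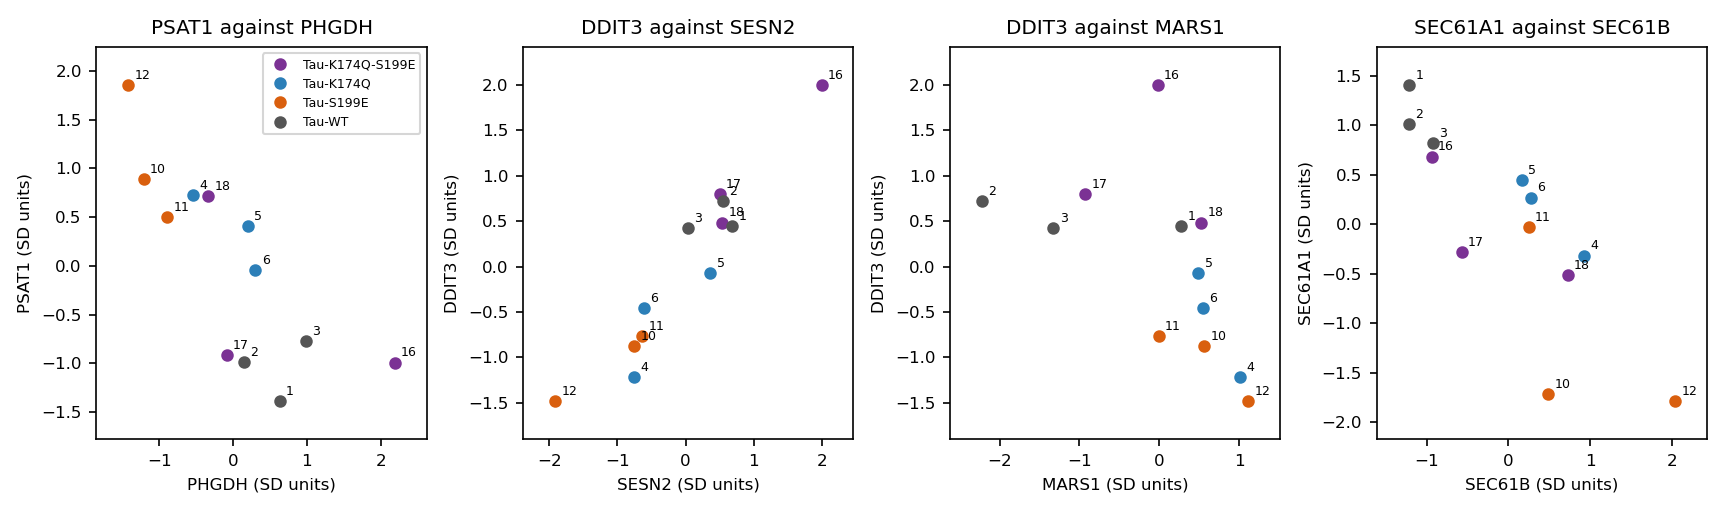
Standardised values of 2 genes against each other (both axes in SD units) in the 12 libraries, coloured by tau construct and numbered by library. DDIT3 and SESN2 lie along a rising line (r = 0.96), while PSAT1 against PHGDH (r = -0.78), DDIT3 against MARS1 (r = -0.56) and SEC61A1 against SEC61B (r = -0.84) fall.

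Of 15 markers of adrenergic neuroblastoma cells, the class to which SH-SY5Y belongs, 0 were in the table, so the cell identity could not be checked. Of 15 markers of mesenchymal neuroblastoma cells 4 were in the table, CD44, S100A6, CCN1 and SNAI2, and all 4 rose with Tau-S199E in limma, beside the 48.3% of the table that did. The mean of these 4 genes lay between -1.03 and 0.73 SD units in Tau-K174Q-S199E libraries, between 0.43 and 0.60 in those of Tau-K174Q, between 0.54 and 1.66 in those of Tau-S199E, and between -1.35 and -0.91 in those of Tau-WT. They moved with XBP1, PSAT1 and DDIT4, and their part in the stress gene values was not tested. In RNA of whole cultures, fewer cells of a type and less RNA per cell cannot be told apart. MAPT, the gene of tau, averaged 0.86 ± 1.57 SD units in the Tau-K174Q-S199E group, -0.52 ± 0.04 in the Tau-K174Q group, -0.66 ± 0.69 in the Tau-S199E group and 0.32 ± 0.46 in the Tau-WT group (SD, n = 3 each). Since a 3′ tag can miss a construct that lacks the annotated gene end, MAPT is no check of transfection.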

How the data were processed

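Per the labels' protocols, each of the 12 libraries was a 3′ tag library of polyadenylated RNA made from 400 ng. STAR 2.5.3a, RSEM 1.2.31, DESeq2 and the build GRCh38 are named, without roles, per the submitters' processing notes. The sources used here do not give how values were transformed, genes filtered, strands counted and clusters made. Library values as deposited are a score that the authors standardised by gene (gene SD 1 over the libraries, as tested on the file). Per the file headers, the deposited table also holds a log2 fold change and an adjusted p-value for each gene, with no contrast named. A cluster number is also deposited.

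Standardising removed level, depth and fold size, so no interval or floor from counts, no pseudocount, no low-value filter and no count model applied. Column names give the construct and a library number, not a replicate number of the labels, and libraries are named by both. All per-sample columns were used.

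The values were fitted with limma 3.58.1 (R 4.3.3), a mean per construct over all 12 libraries. Contrasts were tested two-sided with the residual variance of each gene, unmoderated (8 degrees of freedom), and Benjamini-Hochberg adjustment over 1676 genes, threshold 0.05. The fit was tested on simulated data. Alternatives were moderated variances, only the compared libraries, ranks, and each library left out. Leaving out libraries 12 and 18 together was chosen after seeing the data.

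The text names the 6 members, listed pathway genes in the table, and for each member the 3 most like genes and the most opposite one. Members and lists were chosen with earlier results of these data known. The gene pairs plotted, and the genes compared for promoter elements, were chosen after their values were seen. Gene positions are from GENCODE 29 and promoters from RefSeq, where all 6 members matched.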

Additional observations from a re-analysis of the deposited data

Results flagged for a closer look

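All 6 stress genes had an effect of K174Q that differed with S199E by the interaction term in limma, the test that 97% of the table passed and whose sign equals that of the authors' fold change throughout. The difference of differences, (Tau-K174Q-S199E minus Tau-S199E) minus (Tau-K174Q minus Tau-WT), was 3.24 SD units for DDIT3 (limma adjusted p = 0.0182), 2.75 for ATF4 (limma adjusted p = 0.0199) and 2.21 for HSPA5 (limma adjusted p = 0.0188). It was -2.89 for PSAT1 (limma adjusted p = 0.0182), -2.73 for XBP1 (limma adjusted p = 0.0182) and -2.37 for DDIT4 (limma adjusted p = 0.0419). With each of the 12 libraries left out in turn, DDIT3 ranged from 2.79 to 3.55 and DDIT4 from -2.88 to -1.58. DDIT4 passed in 4 of those 12 fits and each of the other 5 genes in 12, and the share of the table passing in all 12 was not counted. The authors' contrast is not named, and its sign fits the interaction and Tau-WT minus Tau-S199E equally, in 1676 of 1676 genes each. With 97% of the table called, these values are a description of genes in a selected table.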

How the results depend on the processing

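Of 444 values of single stress genes under the alternatives, 399 kept direction and side of the threshold, 24 came to pass, 18 no longer passed and 3 changed sign. In Tau-S199E against Tau-WT the count of stress genes called was 3 to 5 of 6 with 1 library left out (3 without library 12, where 833 genes of the table were called against 1509). In Tau-K174Q against Tau-WT it was 5 with moderated variances and 4 in the fit on 6 libraries, against 0 (1004 and 819 genes of the table, and 26 on ranks, against 0). In Tau-K174Q-S199E against Tau-S199E it was 3 with moderated variances, 1 on ranks, 3 without libraries 12 and 18, and 0 to 4 with 1 library left out (4 without library 18), against 0. The table counts were 1153, 411, 730 and, without library 18, 1315, against 2. In Tau-K174Q-S199E against Tau-K174Q it was 3 without libraries 12 and 18 and 0 to 1 with 1 library left out, against 0 (451 genes of the table and, without library 18, 142, against 0). Signs turned in values that did not pass: DDIT4 in Tau-K174Q-S199E minus Tau-K174Q was 0.15 without library 16 (-0.64 with it; -1.14 to 0.15 over the libraries left out), and ATF4 in Tau-K174Q minus Tau-S199E was -0.12 without library 12, with or without library 18 (0.11 with all; -0.12 to 0.26 over the libraries left out). The cause of these shifts was not tested. DDIT4 also lost its interaction call on ranks (limma adjusted p = 0.0512). No paired analysis was possible because the columns carry no replicate number of the labels. Depth is unknown.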

Other observations

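The annotation in the authors' deposited table placed the stress genes under overlapping terms. Response to endoplasmic reticulum stress held 10 genes of the table, ATF4, DDIT3 and HSPA5 among them, the endoplasmic reticulum unfolded protein response held 9, DDIT3, XBP1 and HSPA5 among them, and the PERK branch held 4, which were ASNS, ATF4, DDIT3 and HSPA5. All 4 genes of the PERK term were lower with Tau-S199E than with Tau-WT, where 41.8% of the table was called lower; the group was noticed after the values were seen and is a description only. The serine synthesis term held 2 genes, PHGDH and PSAT1, which moved apart.

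Pseudogenes named after the stress genes in GENCODE 29 number 4 for ATF4, 4 for PSAT1 and 1 for XBP1, and 0 of them were in the table, so a split of reads between copies cannot be seen here. DDIT4-AS1 lies within DDIT4 on the opposite strand over 1066 bases and was not in the table, and MBD6 overlaps the annotated 5′ end of DDIT3 over 1028 bases and was.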
